A study of Mus musculus with 65 samples.

Results

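Of 13314 wild-type DMC1 hotspots on chromosomes 1 to 19 (13808 with the sex chromosomes included), 971, or 7.29%, had no MEI4 peak in the wild type and had a MEI4 peak in each of the Spo11KO, Hormad1KO and Iho1KO testes. These 971 intervals are called the gained hotspots here. They were selected on measured values, namely an overlap of at least 1 bp between a DMC1 interval and the deposited MEI4 peaks, so their MEI4 pattern in these 4 genotypes is a description and no result. What they carried in the other lists, their DMC1 values and their position were not used by the rule beyond the presence of a wild-type DMC1 interval.

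The study mapped proteins of the meiotic break machinery and chromosome axis in mouse testis by chromatin immunoprecipitation, and DMC1-bound single-stranded DNA by sequencing. Groups were the wild type (C57BL/6JCrl), Spo11tm1Mjn (Spo11KO), Hormad1tm1.2Atot (Hormad1KO), Iho1tm1.2Atot (Iho1KO), Mei4tm1Bdm (Mei4KO) and B6;129P2-Prdm9tm1Ymat/J (Prdm9KO). Per the labels' protocols, spermatogenesis was synchronised in all of them: pups from 1.5 days of age received WIN 18,466 for 7 to 10 days, then retinoic acid, and testes were taken 8 days after that injection, with 80 to 95% of spermatocytes at leptotene or zygotene. Whole testes were fixed in 4% formaldehyde for 15 min, so other testis cells contributed chromatin, and peak lists cannot be checked against cell type markers. Each of the 24 lists stands for 1 group; 21 of these groups have 2 samples and 3 have 1 (SYCP3 in Prdm9KO, Spo11KO and Iho1KO), and no list gives a value per sample. Every comparison below therefore has no replicate check and no p-value. Intervals are 95% intervals that treat hotspots as independent and cover counting error only, and a difference is called where its interval does not include 0. A hotspot counts as carrying a protein where the peak list overlaps it, which depends on each list's peak calling and depth, and the depth is unknown.

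Meiotic recombination starts with double-strand breaks that SPO11 makes at hotspots, whose positions in mice are set by the histone methyltransferase PRDM9. MEI4 is an accessory protein that SPO11 needs, and with IHO1 it forms foci on the chromosome axis before breaks appear. HORMAD1 and SYCP3 are axis proteins, HORMAD1 being a HORMA-domain protein that binds IHO1, and SYCP3 a structural part of the axis. DMC1 is the meiotic recombinase that coats the single-stranded ends of resected breaks, so its level at a hotspot reflects breaks made and how long they persist. CTCF is a DNA-binding protein of chromatin loops, mapped here as a further site class.

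The reference at hand holds promoter windows and no whole genome, so the bases of only those gained hotspots that cover a gene start can be shown. The gained hotspots touched 31 of 31396 autosomal promoter windows, through 27 hotspots, and in 2 of them the centre of the DMC1 interval fell within the 250 bases before the start site. Both are printed 5′ to 3′ on the strand of the gene, from RefSeq (GRCm38.p6, the mm10 assembly), because they place the centre of a gained hotspot on known bases. Capitals mark the 21 bases around the centre of the DMC1 interval, which is a midpoint and not a mapped break or binding site.
Gm31493: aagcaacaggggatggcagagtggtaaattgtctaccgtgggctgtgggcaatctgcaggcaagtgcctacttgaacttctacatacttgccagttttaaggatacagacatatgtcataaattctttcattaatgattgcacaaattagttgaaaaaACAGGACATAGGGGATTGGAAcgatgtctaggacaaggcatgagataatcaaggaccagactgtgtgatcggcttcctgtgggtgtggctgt
Lims1: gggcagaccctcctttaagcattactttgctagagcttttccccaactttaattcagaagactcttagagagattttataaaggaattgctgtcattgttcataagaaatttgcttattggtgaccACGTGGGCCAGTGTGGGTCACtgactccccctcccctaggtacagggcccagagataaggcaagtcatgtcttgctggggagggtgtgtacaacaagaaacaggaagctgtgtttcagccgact
The first window is chr1:160025764-160026013 on the minus strand, upstream of the predicted protein-coding gene Gm31493, in the hotspot chr1:160024798-160026891. This hotspot had a wild-type DMC1 value of 1363.5 and overlapped peaks of IHO1 in Spo11KO, HORMAD1 in Spo11KO and SYCP3 in the wild type. The second is chr10:58371204-58371453 on the plus strand, before Lims1, which encodes the focal adhesion adaptor PINCH1, in the hotspot chr10:58370306-58372374. Its wild-type DMC1 value was 754, and IHO1 in Hormad1KO was the only IHO1, HORMAD1 or SYCP3 list with a peak there. The centres lay 82 and 114 bases before the start sites. GC content was 44% and 46.8%, against a median of 52.4% over the same 250 bases of all autosomal windows.

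The gained hotspots were mostly strong hotspots. Their deposited wild-type DMC1 value, a signal in steps of 0.5 whose unit is not given in the sources used here, ranged from 54 to 13846, with a median of 688.5 (95% interval 650 to 723) and quartiles of 387 and 1324. The median over all autosomal hotspots was 128. Among the gained hotspots 71.7% lay in the strongest 25% of autosomal hotspots and 27.0% in the strongest 10%, while 27 of 971 lay in the weaker 50%. The 1465 hotspots with a wild-type MEI4 peak had a higher median, 1500.5, and the 8797 hotspots without MEI4 in any of the 4 lists a median of 73. The closest class was formed by 600 hotspots with MEI4 in Spo11KO and Hormad1KO but neither in the wild type nor in Iho1KO, called here Iho1KO-absent hotspots, with a median of 572 (95% interval 544 to 615.5). The share of all hotspots that belonged to the gained class was 0.376% or less in the weakest 4 of 10 equal DMC1 classes, reached 21.9% in the ninth and was 19.7% in the strongest, where 871 of 1332 hotspots already had MEI4 in the wild type.

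**Figure D1:**
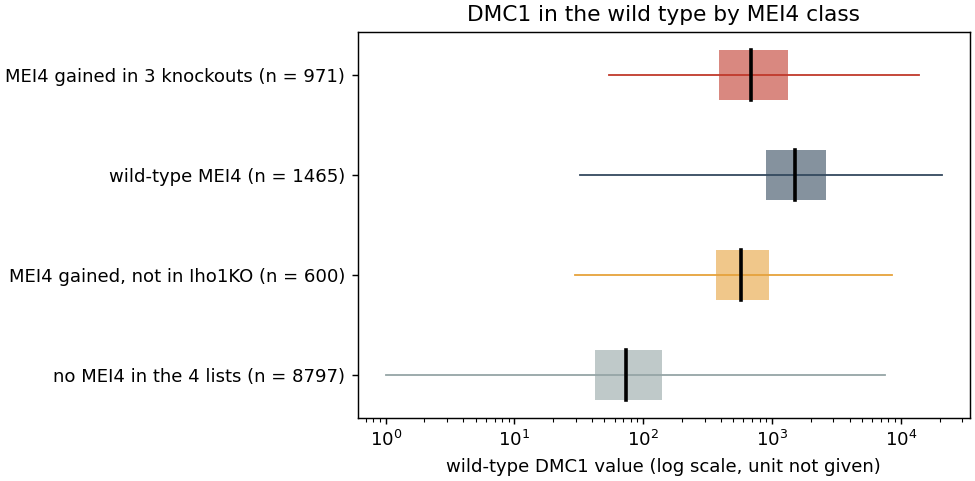
Wild-type DMC1 value per hotspot (log axis, unit not given) in 4 MEI4 classes; the line spans the lowest to the highest value, the bar the middle 50%, and the black mark the median. Gained hotspots (median 688.5) lie between wild-type MEI4 hotspots (1500.5) and hotspots without MEI4 (73).

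The MEI4 peaks that defined the class covered the hotspots well. Peaks were found at 11% of autosomal hotspots in the wild type, 27.8% in Spo11KO, 27.1% in Hormad1KO and 19.0% in Iho1KO. At the gained hotspots the median peak width was 1677 bp in Spo11KO, 1807 bp in Hormad1KO and 1680 bp in Iho1KO. At the 1113 wild-type MEI4 hotspots with MEI4 in all 3 knockouts the widths were 1989, 2123 and 1975 bp, and at the Iho1KO-absent hotspots they were 1466 bp in Spo11KO and 1390 bp in Hormad1KO. The smallest overlaps were 621 bp in Spo11KO, 626 bp in Hormad1KO and 684 bp in Iho1KO. Just outside the rule, the hotspots with peaks in the other knockouts and nearest to the missing one were 321 bp away from it in Spo11KO, 976 bp in Hormad1KO and 2271 bp in Iho1KO. The gained hotspots nearest to a wild-type MEI4 peak were 1331, 2101 and 2877 bp from it.

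IHO1, the partner of MEI4 on the axis, was rare at the gained hotspots in the wild type and frequent in both knockouts of the rule that have an IHO1 list. Its wild-type list touched 89 of 971 (9.17%; interval 7.51 to 11.1), against 4.08% of all autosomal hotspots. The Spo11KO list touched 488 (50.3%; 47.1 to 53.4) against a background of 14.6%, and the Hormad1KO list touched 502 (51.7%; 48.6 to 54.8) against 12.7%. In Mei4KO the count was 3 (0.309%) with a background of 0.293%, and in Prdm9KO it was 1 (0.103%) with a background of 0.150%. The gain went in 1 direction nearly throughout: 412 hotspots had IHO1 in Spo11KO without the wild type and 13 the reverse, and for Hormad1KO these numbers were 422 and 9. IHO1 was in either knockout at 653 hotspots (67.3%), and in both at 337 (34.7%), of which 263 had none in the wild type. The 311 hotspots with no IHO1 in any of these 3 lists made up 32.0%. Such combinations of lists, also those of HORMAD1 and SYCP3 below, were counted at the gained hotspots only. They have no share over all autosomal hotspots beside them.

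HORMAD1 changed little between the wild type and Spo11KO. The wild-type list touched 117 gained hotspots (12.0%; 10.1 to 14.2; background 4.66%) and the Spo11KO list 130 (13.4%; 11.4 to 15.7; background 5.30%). Only 67 hotspots were shared by these lists, with 50 in the wild-type list alone and 63 in the Spo11KO list alone. The Iho1KO list touched 20 (2.06%; background 1.43%), the Mei4KO list 12 (1.24%; background 2.04%) and the Prdm9KO list 2 (0.206%; background 0.391%). In Iho1KO, 104 of the 117 wild-type overlaps were missing and 7 others appeared, although the Iho1KO list held more HORMAD1 peaks in all, 3149 against 1715. MEI4 was listed at all 971 sites in Iho1KO by the rule, so the 20 sites with HORMAD1 there give no contrast between the 2 proteins.

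SYCP3 was at fewer gained hotspots in each knockout list than in the wild type. It was in the wild-type list at 187 gained hotspots (19.3%; 16.9 to 21.9; background 7.56%) and in the Spo11KO list at 123 (12.7%; 10.7 to 14.9; background 5.95%). Of the 187 hotspots, 79 kept a peak in Spo11KO, and 44 had a peak in Spo11KO alone. The Hormad1KO list touched 33 (3.40%; background 1.46%) and the Iho1KO list 31 (3.19%; background 6.56%). The Mei4KO list touched 6 (0.618%; background 1.11%) and the Prdm9KO list 4 (0.412%; background 1.10%). The SYCP3 share in Iho1KO was below its background even though that list was the longest of the SYCP3 lists, with 5380 peaks.

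**Figure D2:**
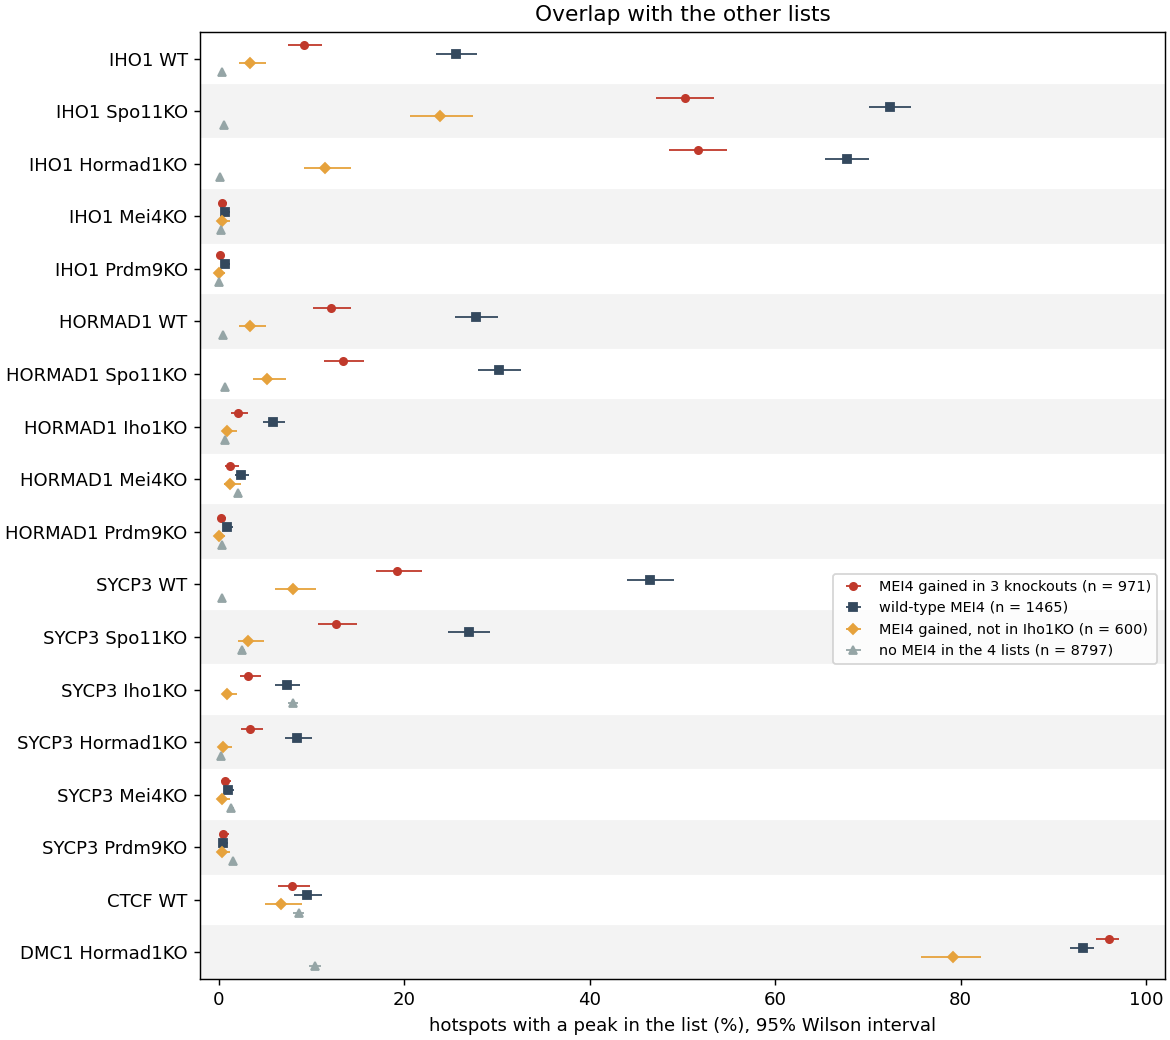
Percent of hotspots (horizontal axis) that overlap a peak in each list of IHO1, HORMAD1, SYCP3, CTCF and Hormad1KO DMC1, by MEI4 class, with 95% Wilson intervals. Gained hotspots (red) reach 50.3% and 51.7% for IHO1 in Spo11KO and Hormad1KO, against 9.17% in the wild type, and lie between the wild-type MEI4 and the Iho1KO-absent hotspots in most lists with many peaks at hotspots.

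The MEI4 list of Prdm9KO touched 1 of them (0.103%; background 0.0601%). CTCF touched 77 (7.93%; 6.39 to 9.80), a share near its background of 8.61%.

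Taking the lists of IHO1, HORMAD1 and SYCP3 in all genotypes together (16 lists), 295 gained hotspots (30.4%) were in none, 264 in 1, 191 in 2, 143 in 3 to 5 and 78 in 6 or more. Of the 191 in 2 lists, 153 were in the IHO1 lists of Spo11KO and Hormad1KO. In the wild type alone, 202 (20.8%) carried at least 1 of the 3 proteins and 65 carried all 3. These counts, too, have no share over all autosomal hotspots beside them, so whether they are unusual was not tested. The sets differed in strength, as hotspots with any wild-type IHO1, HORMAD1 or SYCP3 peak had a median DMC1 value of 2613, and those with none 551.5. Hotspots with IHO1 in both knockouts had a median of 1324, and those with it in neither 415.5.

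Within the gained hotspots, the overlap with the wild-type lists was concentrated in the strongest quartile by DMC1 value (1324 and above). From the weakest to the strongest quartile (243, 243, 242 and 243 hotspots), the wild-type IHO1 list touched 3, 0, 4 and 82, and the wild-type HORMAD1 list 2, 2, 5 and 108. The wild-type SYCP3 list touched 4, 2, 18 and 163, the last being 67.1% of its quartile. The 0 of 243 allows a share of up to 1.56% by its Wilson interval. IHO1 in the knockouts began at lower strength. The Spo11KO list touched 50, 101, 142 and 195 hotspots per quartile, and the Hormad1KO list 61, 108, 135 and 198, which is 25.1% of the weakest quartile and 81.5% of the strongest.

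**Figure D3:**
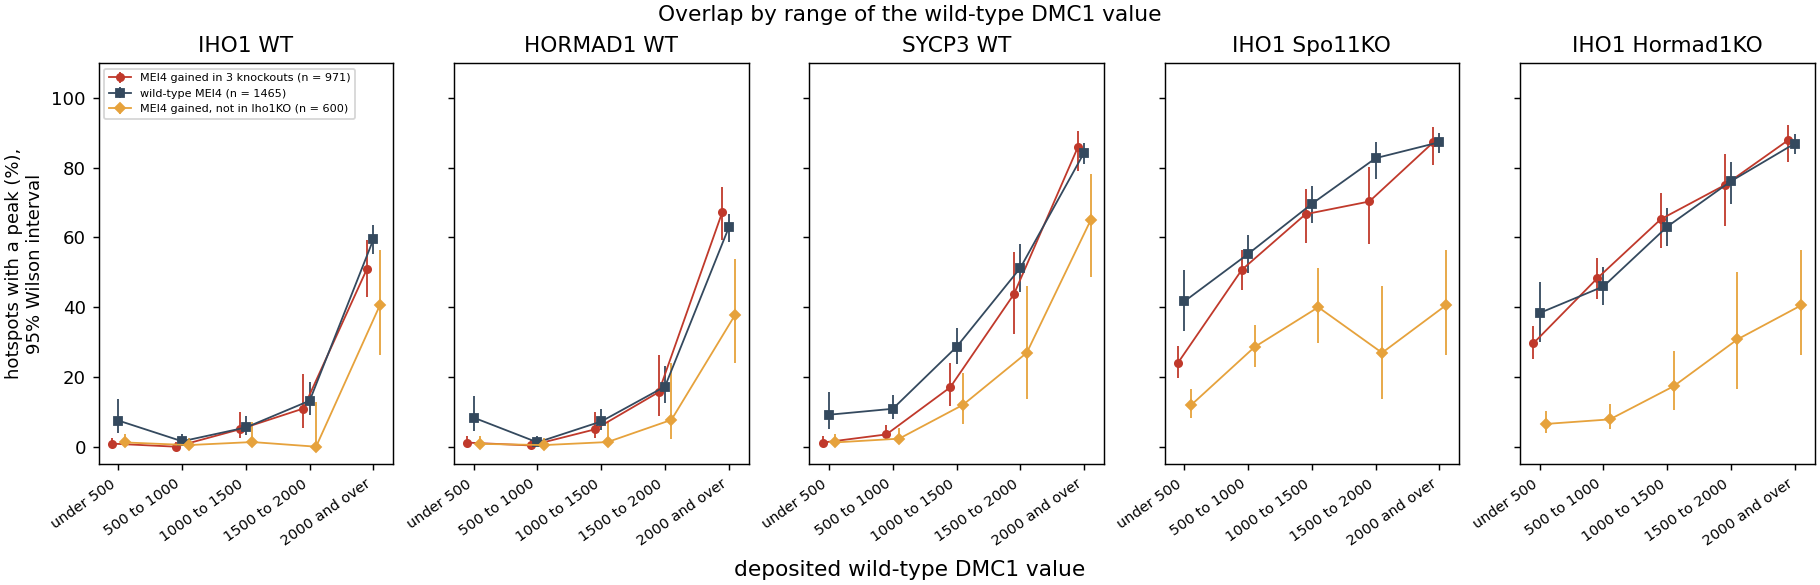
Percent of hotspots with a peak (vertical axis, 95% Wilson intervals) by range of the wild-type DMC1 value (horizontal axis), for 5 lists and 3 MEI4 classes. At values of 2000 and over, 85.8% of gained and 84.3% of wild-type MEI4 hotspots had SYCP3 in the wild type, and at every range both had more IHO1 in Hormad1KO than the Iho1KO-absent hotspots.

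Because the classes differ in strength, each was compared with the gained hotspots as a whole and within 10 classes of the DMC1 value, weighted by the gained hotspots. Wild-type MEI4 hotspots had more IHO1 in the wild type, 25.6% against 9.17% (difference -16.4 points; -19.3 to -13.5), and within DMC1 classes the difference shrank to -4.15 points (-6.72 to -1.57). For IHO1 in Hormad1KO the difference was -16.1 points, and within DMC1 classes -2.05 points (-6.81 to 2.70), which is not called. For wild-type HORMAD1 it was -15.7 points, and within classes -1.81 points (-4.46 to 0.831), not called either. With 20 DMC1 classes, an alternative added after the data had been seen, these 2 differences turned to 1.36 and 0.0345 points, neither called. IHO1 in Spo11KO remained lower at the gained hotspots within classes (-7.39 points; -12.1 to -2.67), as did wild-type SYCP3 (-7.16 points; -10.2 to -4.08). Of 19 lists compared, 13 differences were called as a whole, 12 of them lower at the gained hotspots, and 11 within DMC1 classes, 10 of them lower. Against only those wild-type MEI4 hotspots with MEI4 in all 3 knockouts, added after the data had been seen, 11 differences were called, all lower. Within 10 DMC1 classes 7 were called, all lower, and within 20 classes 5. IHO1 in Hormad1KO was lower within 10 classes too (-13.8 points; -18.9 to -8.69), while wild-type HORMAD1 was not called there (-0.863 points; -3.48 to 1.75).

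The Iho1KO-absent hotspots share with the gained hotspots the lack of MEI4 in the wild type and its presence in Spo11KO and Hormad1KO, and differ by the rule only in the Iho1KO list. They had less IHO1 in Hormad1KO, 11.5% against 51.7% (difference 40.2 points; 36.0 to 44.1), and 37.4 points less (33.0 to 41.8) within DMC1 classes. For IHO1 in Spo11KO the shares were 23.8% and 50.3%, and the difference within DMC1 classes was 24.5 points (19.7 to 29.3). Wild-type SYCP3 was at 8.00% of them and wild-type HORMAD1 at 3.33%, which within DMC1 classes is 6.84 points (3.25 to 10.4) and 6.70 points (3.69 to 9.70) below the gained hotspots. Of the 19 differences, 10 were called, all higher at the gained hotspots, and 11 within DMC1 classes, again all higher. Their MEI4 peaks in Spo11KO and Hormad1KO were narrower, by the widths given above, and the part of that in these differences was not tested.

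Against the 8797 hotspots without MEI4 in the 4 lists, 13 of 19 differences were called and 11 of them were higher at the gained hotspots, 9 of these in the 16 lists of IHO1, HORMAD1 and SYCP3. The higher call for MEI4 in Prdm9KO rested on 1 gained hotspot, against 0 of the 8797 (0.103 points; 0.00761 to 0.581). It was not called within DMC1 classes. Within 10 DMC1 classes 10 differences were called, all higher, and within 20 classes, added after the data had been seen, 7. Wild-type IHO1 was 8.85 points higher at the gained hotspots as a whole and 7.15 points higher within 10 classes (3.85 to 10.4). For wild-type HORMAD1 these values were 11.6 and 7.87 points (3.90 to 11.9), all called. The 10 classes kept 963 gained hotspots. The 20 classes kept 669, with wild-type IHO1 at 0.598% and HORMAD1 at 1.20%, against 9.17% and 12.0% of all gained hotspots. There the differences were 0.499 (-0.849 to 1.85) and 0.430 points (-1.27 to 2.13), neither called. The gained hotspots left out were not tested within 20 classes. The hotspots without MEI4 carried IHO1 at 0.591% in Spo11KO and 0.148% in Hormad1KO. For SYCP3 in Iho1KO the direction was the other way, 7.98% against 3.19% (difference -4.79 points; -5.89 to -3.37), but within DMC1 classes it was 1.69 points higher at the gained hotspots (-0.461 to 3.84), not called. CTCF showed no called difference as a whole (-0.675 points; -2.33 to 1.28), while within DMC1 classes it was higher at the gained hotspots by 3.88 points (0.819 to 6.95). Against the wild-type MEI4 hotspots the direction was the other way. There CTCF was lower at the gained hotspots within DMC1 classes (-3.35 points; -6.41 to -0.289) and not called as a whole (-1.63 points; -3.86 to 0.711).

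DMC1 in the Hormad1KO was found at nearly all gained hotspots. Its list touched 932 of 971 (96.0%; 94.6 to 97.0), against 34.2% of autosomal hotspots, and from the weakest to the strongest quartile the counts were 217, 234, 238 and 243. Of the wild-type MEI4 hotspots 93.2% were in that list, 2.81 points fewer (0.957 to 4.57), and within DMC1 classes 10.0 points fewer (6.71 to 13.3). Against the wild-type MEI4 hotspots with MEI4 in all 3 knockouts, added after the data had been seen, the direction turned, with 98.7% of those in the list and a difference of -2.67 points (-4.19 to -1.30). Within DMC1 classes this last difference was 1.36 points (-1.09 to 3.81), not called. The Iho1KO-absent hotspots were at 79.2%, and the difference within DMC1 classes was 13.6 points (10.6 to 16.6).

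The values at the shared hotspots were compared by rank, since the scaling between the lists is not given. Over the 932 gained hotspots in both lists the Hormad1KO value ran from 9 to 6571, with a median of 123 and quartiles of 70.5 and 232, against a wild-type median of 706.5 at the same hotspots. Among the 4548 shared autosomal hotspots, the median rank of the gained hotspots was at the 52.9 percentile in the wild type and at 64.2 in Hormad1KO. That of the Iho1KO-absent hotspots was at 49.5 and 39.1, and that of the wild-type MEI4 hotspots at 78.0 and 77.7. The rank was higher in Hormad1KO at 589 gained hotspots (63.2%; 60.1 to 66.2), against 49.3% of all shared hotspots. It was higher at 28.0% of the Iho1KO-absent and 43.7% of the wild-type MEI4 hotspots. For wild-type MEI4 hotspots with MEI4 in all 3 knockouts the share was 48.4%, with median ranks at 80.2 and 81.1. The classes began at different wild-type ranks, which these shares do not take into account.

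When each hotspot was set against the median Hormad1KO value of its class of wild-type DMC1 value, 70.9% of the gained hotspots lay above it, compared with 29.9% of the Iho1KO-absent and 58.4% of the wild-type MEI4 hotspots. Weighted over DMC1 classes, the differences were 44.1 points (39.1 to 49.0) and 6.76 points (2.00 to 11.5). Against wild-type MEI4 hotspots with MEI4 in all 3 knockouts, added after the data had been seen, the difference was -2.49 points (-7.42 to 2.43), and not called. That comparison kept 750 of the 932 gained hotspots. At wild-type values from 482 to 654.5, for example, the median Hormad1KO value was 112 at 129 gained, 89 at 75 wild-type MEI4 and 51.5 at 90 Iho1KO-absent hotspots. The order of the gained and the wild-type MEI4 hotspots was not the same in all classes. From 344.5 to 481.5 the median was 92.75 at 116 gained and 109.5 at 39 wild-type MEI4 hotspots. In the strongest class, from 2930 up, it was 606.5 at 93 gained and 751 at 313 wild-type MEI4 hotspots. The rule required MEI4 in Hormad1KO for the gained hotspots. It is also present, by their definition, at the Iho1KO-absent hotspots and at the wild-type MEI4 hotspots with MEI4 in all 3 knockouts, but not at all wild-type MEI4 hotspots.

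**Figure D4:**
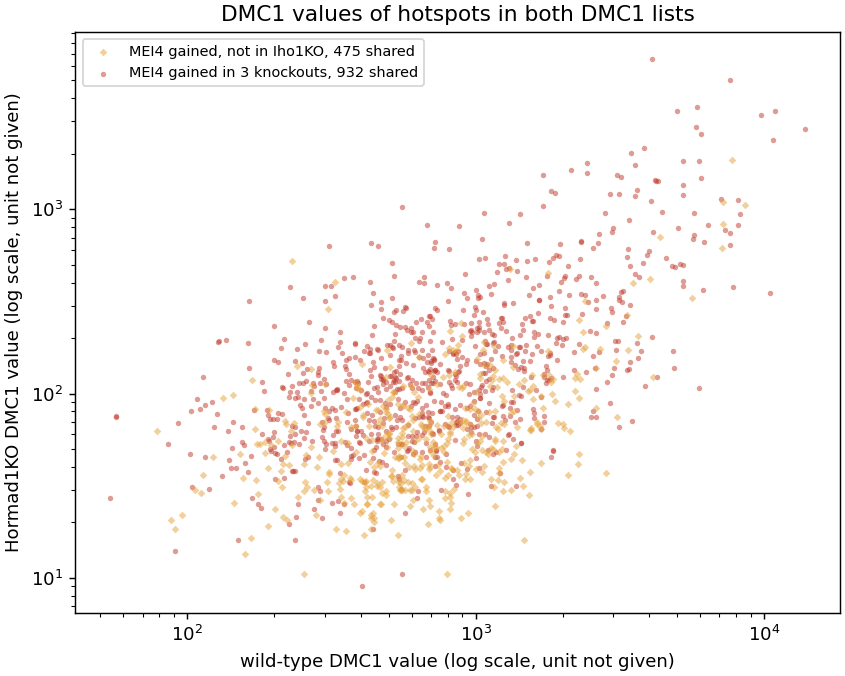
DMC1 value in Hormad1KO (vertical, log axis) against the wild type (horizontal, log axis) at the hotspots in both lists, each point 1 hotspot. At equal wild-type values the 932 gained hotspots (median 123 in Hormad1KO) lie mostly above the 475 Iho1KO-absent hotspots (median 55).

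Along the chromosomes the gained hotspots were scarce at the centromeric end and in the last bin. Chromosomes were divided into 10 equal bins from the centromeric end, with the last position in any list or in the gene table taken as the distal end, since no chromosome lengths were at hand. Bin 1 held 13 gained hotspots (1.34%), against 6.76% of the wild-type MEI4 hotspots, a difference of -5.42 points (-6.93 to -3.91), and -5.14 points (-7.29 to -3.00) within DMC1 classes. Bin 1 also held 18 of the 600 Iho1KO-absent hotspots and 10.5% of the hotspots without MEI4. Bin 1 held 8.37% of all autosomal hotspots. The highest share of gained hotspots, 15.7%, was in bin 9, which was also the fullest bin over all autosomal hotspots, with 11.7%. Bin 10 held 5.05% (3.84 to 6.61), against 10.6% of the wild-type MEI4 hotspots and 10.97% of all autosomal hotspots. The Iho1KO-absent hotspots were also low there, with 6.83% (5.08 to 9.14), an interval that overlaps that of the gained hotspots. The difference between these classes in bin 10 was not tested. Within 5 Mb of the distal end lay 14 gained hotspots (1.44%), against 3.77% of all autosomal hotspots, 4.91% of the wild-type MEI4 hotspots (difference -3.47 points; -4.83 to -2.09) and 1.33% of the Iho1KO-absent hotspots (difference 0.108 points; -1.29 to 1.27). This distal share depended on the rule, and was 4.91% when the rule was applied without the Spo11KO list. The scarcity in bin 1 was present in each list of the rule: among hotspots there without wild-type MEI4, 6.79% had MEI4 in Spo11KO, 5.51% in Hormad1KO and 1.57% in Iho1KO, compared with 20.4%, 23.4% and 15.1% in bin 5. In bin 10 these shares were 19.0% in Spo11KO, 16.2% in Hormad1KO and 8.66% in Iho1KO.

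**Figure D5:**
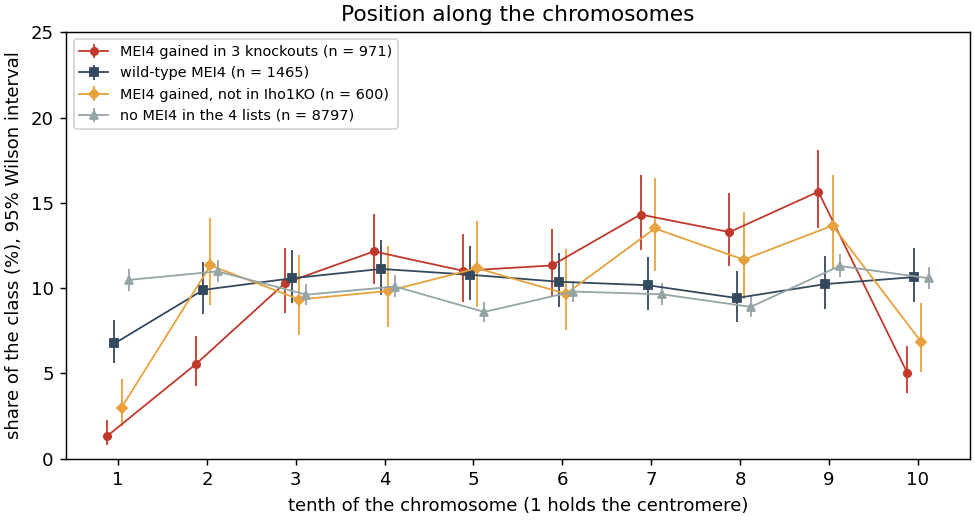
Share of each MEI4 class (vertical axis, percent, 95% Wilson intervals) in 10 equal bins of the chromosome (horizontal axis, bin 1 at the centromere). Gained hotspots hold 1.34% in bin 1, 15.7% in bin 9 and 5.05% in bin 10, while wild-type MEI4 hotspots hold 6.76% in bin 1.

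By chromosome, the gained hotspots made up from 2.33% of the hotspots of chromosome 18 (13 of 559) to 10.8% of those of chromosome 11 (77 of 714). Chromosome 18, singled out after its value was seen, stood against 7.51% on the other autosomes, a difference of -5.19 points (-6.26 to -3.51), and -4.84 points (-6.42 to -3.27) within DMC1 classes. Wild-type MEI4 was at 10.6% of the hotspots of chromosome 18, which differed from the other autosomes by -0.469 points (-2.82 to 2.40). Among hotspots without wild-type MEI4, the share with MEI4 on chromosome 18 was lower in all 3 lists, 12.6% against 19.9% in Spo11KO, 10.4% against 19.2% in Hormad1KO and 3.60% against 11.7% in Iho1KO.

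Protein-coding gene bodies of the RefSeq table (GRCm38.p6) were touched by 610 gained hotspots (62.8%) and by 57.4% of all autosomal hotspots. The share was 60.8% for the wild-type MEI4 hotspots and 55.2% for the Iho1KO-absent hotspots, which was below the gained hotspots (difference 7.66 points; 2.66 to 12.6). The ends of those genes, with 1 kb to each side, were touched by 62 (6.39%), by 13.3% of all autosomal hotspots and by 16.9% of the hotspots without MEI4. Within DMC1 classes the difference from the hotspots without MEI4 was -0.0670 points (-3.49 to 3.36). The median distance to the nearest wild-type MEI4 peak was 406 kb, shorter than the 589 kb of the Iho1KO-absent hotspots. Gained hotspots not touching SYCP3 lay a median of 316 kb from a wild-type SYCP3 peak, against 553 kb for the Iho1KO-absent and 364 kb for the wild-type MEI4 hotspots. The nearest CTCF peak was a median of 19.8 kb away, near the 22.4 kb over all autosomal hotspots.

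The strongest gained hotspot, chr17:55288595-55291032 (mm10), lies between genes, 154 kb from the sialyltransferase gene St6gal2. Its DMC1 value was 13846 in the wild type and 2740.5 in Hormad1KO. It overlapped IHO1, HORMAD1 and SYCP3 peaks in the wild type and in Spo11KO, IHO1 and SYCP3 peaks in Hormad1KO, and no peak of these in Iho1KO, so it carried the axis proteins and IHO1 in the wild type with MEI4 not listed there. The next was a hotspot in the gene AW554918 on chromosome 18 with 10897.5 and 3415.5, followed by chr2:99792940-99795409, 1765 kb from the nearest protein-coding gene Iftap, with 10754.5 and 2366. At chr2:147561146-147563551, 186 kb from Pax1, a paired-box transcription factor gene, the values were 9769 and 3229. An exception in Hormad1KO was chr3:143588687-143590730 in the long non-coding RNA gene Gm33651, with 10451 in the wild type and 350.5 in Hormad1KO. All 5 carried IHO1 in the wild type, Spo11KO and Hormad1KO.

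Among the 5 weakest, chr17:3082973-3086144 stood apart from the class. Its DMC1 value was 55.5, it was not in the Hormad1KO DMC1 list, and it overlapped 15 of the 16 IHO1, HORMAD1 and SYCP3 lists, the CTCF list and the MEI4 list of Prdm9KO, the only gained hotspot in the latter. It lies 28.8 kb from Scaf8, and its MEI4 peaks in the 3 knockouts were 724, 788 and 819 bp wide. The others were chr13:65380335-65382438 in the non-coding genes Gm40983 and Gm40982 (54), chr1:170440209-170441913 in Nos1ap, encoding an adaptor of neuronal nitric oxide synthase (56.5), chr2:120332852-120334667 in Vps39, a component of a vesicle tethering complex (56.5), and chr11:103478806-103480367 in Lrrc37a (63.5). Of the latter 4, the first was in 2 of the 16 lists, the second in 1 and the others in none. The other sites in the most lists that were not among the 5 strongest were chr2:152614725-152616800, 2.00 kb from the defensin gene Defb36 (900, 11 lists), and chr9:60051744-60053512 in Thsd4 (324, 11 lists). These also carried IHO1 and SYCP3 peaks in Mei4KO, lists that touched 3 and 6 of the 971 gained hotspots.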

How the data were processed

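The authors deposited 1 interval list per group for MEI4, IHO1, HORMAD1, SYCP3, CTCF and DMC1. Bowtie2, MACS2 and mm10 are named in the submitters' processing notes, without roles or versions, and per the design text signal of the antigen's own knockout was subtracted. Whether samples were pooled before calling is not given in the sources used here. DMC1 lists hold a signal per interval deposited by the authors (unit not given), CTCF a deposited score, which was not used, and the other lists positions only, as deposited.

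Overlap of at least 1 bp defined presence, in Python 3.11.15 with numpy 2.4.6, pandas 2.3.3 and scipy 1.17.1. Shares have Wilson, differences Newcombe 95% intervals. Differences within 10 equal classes of the wild-type DMC1 value used classes with at least 20 hotspots in each group, weighted by the gained hotspots. The overlap and interval code was tested on simulated data. Genes and start sites came from RefSeq GRCm38.p6. Sites were named by rule: the 5 strongest, the 5 weakest, the 5 in most lists and those with MEI4 in Prdm9KO. The members, lists and comparisons were chosen with earlier results of these data known. Alternatives covered the overlap, a 1 kb window, strength, chrX, the rule's lists and DMC1 classes. The 12 groups with no list here were not analysed, and chrX entered 1 alternative only.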

Additional observations from a re-analysis of the deposited data

Results flagged for a closer look

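The change in the share of hotspots from the wild-type to a knockout list differed between the gained hotspots and a comparison class, by an interval of the difference that leaves out 0, in 22 contrasts, 11 of 13 against each of 2 classes. All are in percentage points, gained hotspots minus the other class, with no replicate check. Against the Iho1KO-absent hotspots, the rise of IHO1 was larger at the gained hotspots with a difference of 20.6 in Spo11KO and of 34.4 in Hormad1KO. The fall was larger at the gained hotspots for IHO1 in Prdm9KO (-5.73) and Mei4KO (-5.86), for HORMAD1 in Prdm9KO (-8.51), Mei4KO (-8.65) and Iho1KO (-7.49), and for SYCP3 in Prdm9KO (-11.2), Mei4KO (-11.0), Iho1KO (-8.90) and Hormad1KO (-8.36). Their wild-type shares were higher to begin with, 9.17% against 3.33% for IHO1 and 19.3% against 8.00% for SYCP3, so a larger fall was possible.

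Against the wild-type MEI4 hotspots, which began at 25.6% (IHO1), 27.7% (HORMAD1) and 46.6% (SYCP3) in the wild type, the rise of IHO1 in Spo11KO was smaller at the gained hotspots (-5.73). In Hormad1KO it was 42.5 points at the gained and 42.2 points at the wild-type MEI4 hotspots (difference 0.349; -4.00 to 4.70), which is not called. The fall was smaller at the gained hotspots for IHO1 in Prdm9KO (15.9) and Mei4KO (16.1), for HORMAD1 in Prdm9KO (15.0), Mei4KO (14.5) and Iho1KO (11.9), and for SYCP3 in Prdm9KO (27.2), Spo11KO (13.0), Mei4KO (26.9), Iho1KO (23.2) and Hormad1KO (22.2). In Prdm9KO and Mei4KO no share of either class exceeded 2.39%, so those contrasts largely repeat the wild-type differences. The wild-type differences shrank within DMC1 classes, and no contrast of changes was computed within those classes.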

How the results depend on the processing

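Of 580 values recomputed under alternatives, 514 kept their direction and side of the threshold or stayed within their interval. Adding chrX, or limiting the gained hotspots by what their knockout MEI4 peaks touched, hardly changed the set of hotspots. Each such setting kept 68 of 68 values, so these settings are a weak check. The rule gave 968 to 991 hotspots with a 1 kb window at the centre, a 50% overlap, chrX or knockout MEI4 peaks restricted to those touching no wild-type MEI4 peak or exactly 1 hotspot, and 944 in the stronger 50% of hotspots. With a 50% overlap the wild-type shares fell to 7.11% for IHO1, 9.47% for HORMAD1 and 15.8% for SYCP3, and with the 1 kb window that of IHO1 was 7.42%. Without the Iho1KO list it gave 1571 hotspots, with a median DMC1 value of 644, wild-type IHO1 at 6.94%, Spo11KO IHO1 at 40.2% and Hormad1KO IHO1 at 36.3%, wild-type HORMAD1 at 8.72% and SYCP3 at 15.0%, and Hormad1KO DMC1 at 89.6%. Without the Spo11KO list it gave 1221, with a median of 566.5, IHO1 at 40.8% in Spo11KO and 46.0% in Hormad1KO, wild-type SYCP3 at 16.3% and 4.91% within 5 Mb of the distal end. Without the Hormad1KO list it gave 1033, and 24 of 24 values stayed within their interval or 1.5 times the count.

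Against wild-type MEI4 hotspots, the difference within 10 DMC1 classes was -2.05 points for IHO1 in Hormad1KO and -1.81 for wild-type HORMAD1, and within 20 classes 1.36 and 0.0345, none called. Hormad1KO DMC1 turned to -2.67 points against those with MEI4 in all 3 knockouts, and was 1.36 points within 10 DMC1 classes, not called. Within 20 classes wild-type IHO1 was 2.18 points above the Iho1KO-absent hotspots, no longer called. Against the hotspots without MEI4, 20 classes kept 669 gained hotspots, with wild-type IHO1 0.499 and wild-type HORMAD1 0.430 points higher, no longer called. The 10 classes kept 963 gained hotspots there, with differences of 7.15 for IHO1 and 7.87 for HORMAD1, both called. Against the hotspots without MEI4, CTCF turned to 1.98 points in the stronger 50%, 3.88 within 10 classes and 4.35 within 20, HORMAD1 in Mei4KO to 0.259 and 0.0198, and, within 10 classes, SYCP3 in Mei4KO to 0.193 and in Iho1KO to 1.69. HORMAD1 in Mei4KO against the Iho1KO-absent hotspots turned to -0.0338 with a 50% overlap, -0.136 with the 1 kb window and -0.146 in the stronger 50%, none called. The cause was not tested. The 20 classes and the class with MEI4 in all 3 knockouts were chosen after seeing the data. The share at gene ends was 3.40% without the 1 kb margin.

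No paired analysis was possible because each group has 1 list whose columns carry no replicate. Replicates were not left out in turn, for the same reason. Depth is unknown, so a missing peak is a site not listed and not a site shown to lack the protein.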
